A study of Mus musculus with 72 samples.

Results

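A total of 4491 H3K27me3 peaks were listed for CB-839-treated CD8 T cells at 48 h that shared no base with any H3K27me3 peak listed for vehicle-treated cells. They are called CB-839-only peaks here, and were 4491 of the 12417 peaks of the CB-839 list and of 38301 H3K27me3 peaks over the 4 conditions. They were chosen by the measured peak calls, presence in the CB-839 list and absence from the vehicle list, so the values of those lists are given as a description, with no test.

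The cells were mouse OT-I CD8+ T cells, whose transgenic T cell receptor recognises the SIINFEKL peptide of ovalbumin. Splenocytes were cultured with the peptide at 10 ng/mL and recombinant human IL-2 at 100 IU/mL, and all groups used here other than the unstimulated cells had both. The groups were vehicle (DMSO or PBS, which the labels place in the same group), CB-839 at 1 µM, DON at 1 µM and medium without glutamine. CUT&RUN, which releases antibody-bound chromatin with a tethered nuclease, was done at 48 h on 2 samples per condition for H3K27me3 and for H3K27ac. RNA-seq had 4 libraries per group, from unstimulated cells and from cells after 4, 24 or 48 h. Of 52 RNA libraries 40 were used, with between 25.6 M and 51 M counts each. Replicates are not said to come from separate animals or cultures, so p-values measure only the spread between these libraries. The 2 H3K27me3 samples of a condition had been reduced by the authors to a list of peaks reproducible between them, and only those lists were compared. Absence from a list means that no peak passed the authors' limit there, and signal below it was not analysed here.

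H3K27me3, trimethylation of lysine 27 of histone H3, is written by Polycomb repressive complex 2, in which Ezh2 or Ezh1 acts with Eed and Suz12, and it is removed by the demethylases Kdm6a and Kdm6b. It marks silent genes, among them developmental regulators and genes of other lineages in T cells. CB-839 inhibits glutaminase, which turns glutamine into glutamate, and glutamate can be converted to α-ketoglutarate, a cosubstrate of the Kdm6 enzymes. DON is a glutamine analog that inhibits many glutamine-using enzymes.

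Sequences upstream of the RefSeq start are shown for 5 genes whose start lay in a CB-839-only peak and whose RNA is described below. Asns, Slc7a11 and Stc2 belong to the amino acid response, a set of genes induced through the transcription factor Atf4 when amino acids are short. Phlda3 and Ccr6 had lower RNA with CB-839. Capitals mark CG dinucleotides and the 8-base core TGATGNAA of the amino acid response element, searched on both strands. Each run reads 5′ to 3′ on the gene's strand, comes from RefSeq (GRCm38.p6, the assembly that mm10 names) and the first run of each gene stops before the first annotated exon. A second Asns run gives the 30 bases next to the RefSeq start, which lie in exon sequence of a longer Asns transcript of the GENCODE annotation.
Asns, chr6:7693255-7693459, minus strand: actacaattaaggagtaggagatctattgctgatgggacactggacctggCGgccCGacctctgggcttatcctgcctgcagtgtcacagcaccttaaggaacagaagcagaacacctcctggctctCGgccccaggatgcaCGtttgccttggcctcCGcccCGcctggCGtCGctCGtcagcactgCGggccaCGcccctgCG
Asns, chr6:7693210-7693239, minus strand: agccacaTGATGAAActtccCGcaCGCGtt
Slc7a11, chr3:50443615-50443863, minus strand: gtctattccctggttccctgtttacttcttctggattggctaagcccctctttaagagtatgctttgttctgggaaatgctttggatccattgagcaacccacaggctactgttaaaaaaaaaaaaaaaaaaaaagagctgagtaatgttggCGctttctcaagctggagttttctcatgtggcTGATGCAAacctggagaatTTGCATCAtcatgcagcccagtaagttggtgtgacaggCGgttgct
Stc2, chr11:31370075-31370311, minus strand: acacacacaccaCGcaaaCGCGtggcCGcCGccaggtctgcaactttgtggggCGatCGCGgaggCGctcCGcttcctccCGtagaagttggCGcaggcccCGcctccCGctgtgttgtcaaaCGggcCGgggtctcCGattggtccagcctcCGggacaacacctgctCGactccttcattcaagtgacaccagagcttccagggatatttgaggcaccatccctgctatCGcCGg
Phlda3, chr1:135765835-135766084, plus strand: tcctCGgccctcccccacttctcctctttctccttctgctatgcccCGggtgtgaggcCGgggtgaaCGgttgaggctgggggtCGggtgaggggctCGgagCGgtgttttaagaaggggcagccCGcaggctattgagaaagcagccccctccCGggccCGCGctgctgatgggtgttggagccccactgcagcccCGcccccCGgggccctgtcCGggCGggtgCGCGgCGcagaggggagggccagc
Ccr6, chr17:8235793-8236042, plus strand: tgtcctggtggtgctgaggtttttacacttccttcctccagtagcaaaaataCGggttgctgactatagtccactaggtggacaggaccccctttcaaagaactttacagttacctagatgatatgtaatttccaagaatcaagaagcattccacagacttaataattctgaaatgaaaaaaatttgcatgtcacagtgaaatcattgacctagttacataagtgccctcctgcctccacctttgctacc
Asns had 1 copy of the core, starting 23 bases before its RefSeq start and so in that annotated exon, and Slc7a11 had 2 copies on opposite strands, starting 66 and 47 bases before. Stc2, Phlda3 and Ccr6 had no copy in these 250 bases. Slc6a9, the amino acid response gene with the largest named rise below, had no copy either. Its 250 bases all lay in annotated exons and are not shown. The core was in 8 of 457 RefSeq promoter entries (1.75%) whose 250 upstream bases lay whole in a CB-839-only peak, and in 1134 of 32851 entries (3.45%) over all genes. The 8 entries belonged to Asns, Slc7a11, Slc26a10, Hesx1, Fam205a1, Gm14340, Gm32141 and Gm36111. A match to these letters describes the sequence and is no measure of binding.

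CG content varied widely among these promoters. The 250 bases upstream of Stc2 held 24 CG dinucleotides, those of Phlda3 held 18 and those of Asns 16, against 2 for Slc7a11 and 1 for Ccr6. Over the 457 entries inside CB-839-only peaks the median was 7 CG (quartiles 3 and 14), and 120 (26.3%) were CpG-rich, meaning at least 50% G+C and an observed-to-expected CG ratio of at least 0.6. Entries inside CB-839 peaks that overlapped vehicle had a median of 12, and 1465 of 3394 (43.2%) were CpG-rich. Entries inside vehicle-only peaks had a median of 6, with 91 of 365 (24.9%) CpG-rich. Among all entries the median was also 6, with 31.02% CpG-rich. Some genes have several entries, and no test was made.

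CB-839-only peaks were narrow and near the lower limit of the authors' signal. Their median width was 2700 bases (224 to 14468), against 5583.5 for the 7926 CB-839 peaks that overlapped vehicle. Their median summed signal, the sum of the enrichment values of the 2 samples, was 7.95 (quartiles 7.43 and 10.0) and that of the overlapping peaks was 10.0. The irreproducible discovery rate (IDR), the authors' estimate that a peak does not repeat between the 2 samples, was at most 0.01 for 1438 CB-839-only peaks (32.02%) and for 5332 overlapping peaks (67.3%). The lists end at an IDR of 0.05. An IDR above 0.04 was found for 640 CB-839-only peaks (14.3%) and for 355 overlapping peaks (4.48%).

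The reverse set had a similar size and make-up. In the vehicle list 5070 of 13556 peaks (37.4%) overlapped no CB-839 peak, and CB-839-only peaks were 36.2% of their list. Vehicle-only peaks had a median width of 2362 bases and a median signal of 7.73, and 28.2% had an IDR of at most 0.01. CB-839-only peaks covered 13.8 Mb (19.8% of the bases in the CB-839 list) and vehicle-only peaks covered 13.6 Mb (20.9% of those in the vehicle list).

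**Figure D1:**
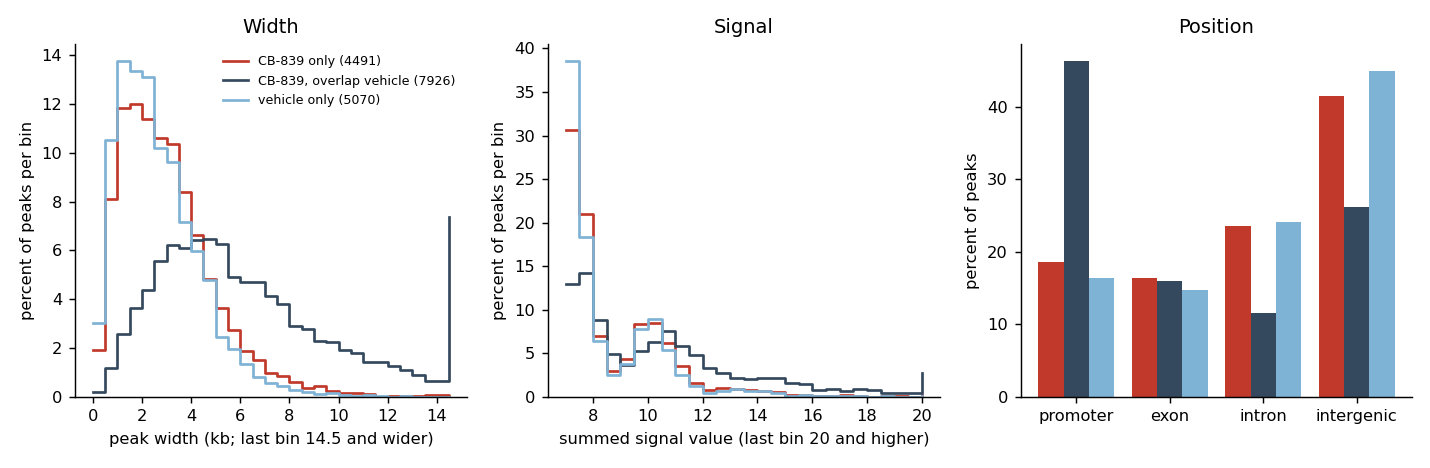
Percent of peaks by width (kb), by summed signal and by position, for CB-839-only peaks (red), CB-839 peaks overlapping vehicle (dark blue) and vehicle-only peaks (light blue). The red and light blue lines nearly coincide, with median widths of 2700 and 2362 bases, and 18.5% and 16.4% of peaks at promoters.

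The members lay in all parts of the genome. A promoter, here 1000 bases either side of a gene's outermost annotated start, held 833 of them (18.5%). Promoters held 3670 (46.3%) of the overlapping peaks and 833 (16.4%) of the vehicle-only peaks. Of the remaining members 737 (16.4%) touched an exon, 1060 (23.6%) lay in introns and 1861 (41.4%) were intergenic. CB-839-only peaks made up between 31.05% (chromosome 4) and 42.1% (chromosome 14) of the CB-839 list of a chromosome. Most stood alone: with gaps of up to 10000 bases joined, 3486 members (77.6%) formed a group by themselves, and 58 groups had 3 or more. The largest groups had 4 members each, and lay at Arhgap26, Tnr, Il33, Etv5, Calhm3 and a stretch of chromosome 2 without a named gene.

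The distance to the nearest vehicle peak had a median of 12288 bases (quartiles 3811 and 42195). A vehicle peak lay within 5000 bases of 1351 members, and for 858 of these (63.5%) that neighbour was itself a peak shared with CB-839. At the other end 561 members (12.5%) were 100000 bases or more from any vehicle peak. Just inside the rule were peaks at Ptprm, Antxr2, Cd4, Aldh1a3 and Neurl1a, with gaps of 7, 11, 11, 17 and 19 bases. Just outside were peaks at Rxra, Gm2628, Cyp26b1, Gm36448 and Jhy, which shared 6, 16, 18, 24 and 25 bases with a vehicle peak. The Cd4 peak (chr6:124885138-124892519, over the Cd4 start) had a summed signal of 14.6, of which 1 of the 2 samples gave only 3.52. The other named peaks just inside had summed signals from 7.12 to 8.16, near the lower limit of the list. Just outside, summed signals ran from 7.15 at Gm36448 to 13.9 at Rxra, where the 2 samples gave 7.04 and 6.90.

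**Figure D2:**
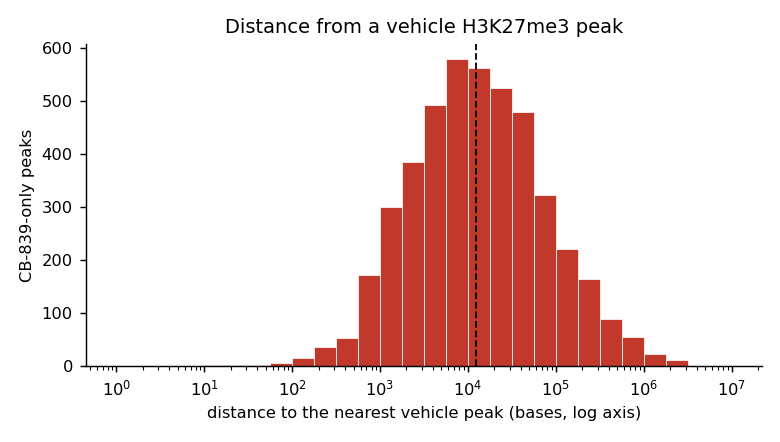
Number of CB-839-only peaks (y axis) by distance to the nearest vehicle H3K27me3 peak (x axis, bases, log scale). The dashed line marks the median of 12288 bases, and 13 peaks lay under 100 bases away.

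The 10 members of highest signal held few genes with a known role in T cells. The first, at the start of the predicted gene Gm37131 (chr3:65857782-65870810), had a signal of 26.9 and also overlapped peaks of the DON and glutamine-free lists. It was followed by peaks in Asph (25.2), which encodes an aspartate hydroxylase, at Gm42663 (24.96) and at Foxi1 (23.6), a forkhead transcription factor of the inner ear and kidney. The others lay 59158 bases from Th (22.4), at AC166779.2 (21.7), 225741 bases from Mvb12b (21.4), in Rfx4 (20.8), in Kcnd3 (20.7) and 70000 bases from Zfp512 (19.8). All 10 had the maximal authors' score of 1000, as did 714 members (15.9%) in all.

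Most CB-839-only peaks were in no other list. DON peaks overlapped 303 (6.75%) and glutamine-free peaks 982 (21.9%), 151 were in both, and 3357 (74.7%) were in neither. The peaks overlapping vehicle were in the DON list in 32.1% of cases and in the glutamine-free list in 62.3%, and vehicle-only peaks in 4.95% and 17.9%. The DON list was short, at 3533 peaks, and the glutamine-free list held 8795. The 151 members found in all 3 treated lists had a median width of 4597 bases and a median signal of 9.60, and included the starts of Wnt9b, a Wnt ligand, Slc6a9, a glycine transporter, Stc2, a secreted glycoprotein, and Irx1, a homeobox factor. The 3357 found with CB-839 alone had a median width of 2456 bases and a median signal of 7.84.

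H3K27ac, a mark of active promoters and enhancers that cannot share a lysine with H3K27me3, was listed under few members. Of 9681 vehicle H3K27ac peaks, some touched 10 members, at Fhl2, Asb1, Nin, Spata31d1b, Cerk, Csrnp2, Socs6, Zeb2, Aste1 and near Erbin. The glutamine-free H3K27ac list (6687 peaks) touched 2 members, 1 of them the Asns peak. The corresponding share for vehicle H3K27ac was 0.223% of members, 0.631% of overlapping peaks and 0.394% of vehicle-only peaks. The CB-839 H3K27ac list held 117 peaks and the DON list 33, and overlap with these short lists is not given.

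A CB-839-only peak lay at the promoter of 966 of 55487 annotated genes (1.74%), of which 533 were protein-coding (2.54% of 20952). The genes that H3K27me3 is best known for were under shared peaks. Of 39 genes of the HOX clusters, which set position along the body axis, none had a CB-839-only peak at the promoter and 35 had a peak shared with vehicle. Of 171 developmental transcription factors 150 had a shared peak and 4 a CB-839-only peak (Sox12, Sox5, Irx1 and Otx2). Of 62 WNT, FGF and BMP ligands 38 had a shared peak, and Wnt9b and Gdf10 a CB-839-only peak. Fgf10 was not counted by its outermost start, but the 250 bases before a RefSeq start of it lay in such a peak. Potassium channels divided the same way, 51 against 5 of 99.

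Genes of T cell function are given against the 2.54% of all protein-coding genes. Among cytokines and chemokines 3 of 31 (9.68%) had a CB-839-only peak, namely Il17f and Il5, products of the Th17 and Th2 helper lineages, and Ccl22, a Ccr4 ligand. Among receptors it was Ccr6 (1 of 35, 2.86%), the receptor for Ccl20, and among naive and memory genes Klf2 (1 of 24, 4.17%), a transcription factor of quiescent T cells. Cd4 was the 1 gene of 13 (7.69%) on CD4 and other T cell fates. At these list sizes 1 gene sets the share. None was found among 14 cytotoxic granule genes, 33 interferon-stimulated genes or 18 inhibitory receptors and TOX factors. By the outermost start, 13 CD8 T cell markers, 16 B cell markers and 17 NK cell markers had none either. The B cell marker Vpreb3 did have a CB-839-only peak over the 250 bases before a RefSeq start. The amino acid response had 4 of 36 genes (11.1%), Asns, Slc6a9, Stc2 and Slc7a11, while 3 others had a shared peak.

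**Figure D3:**
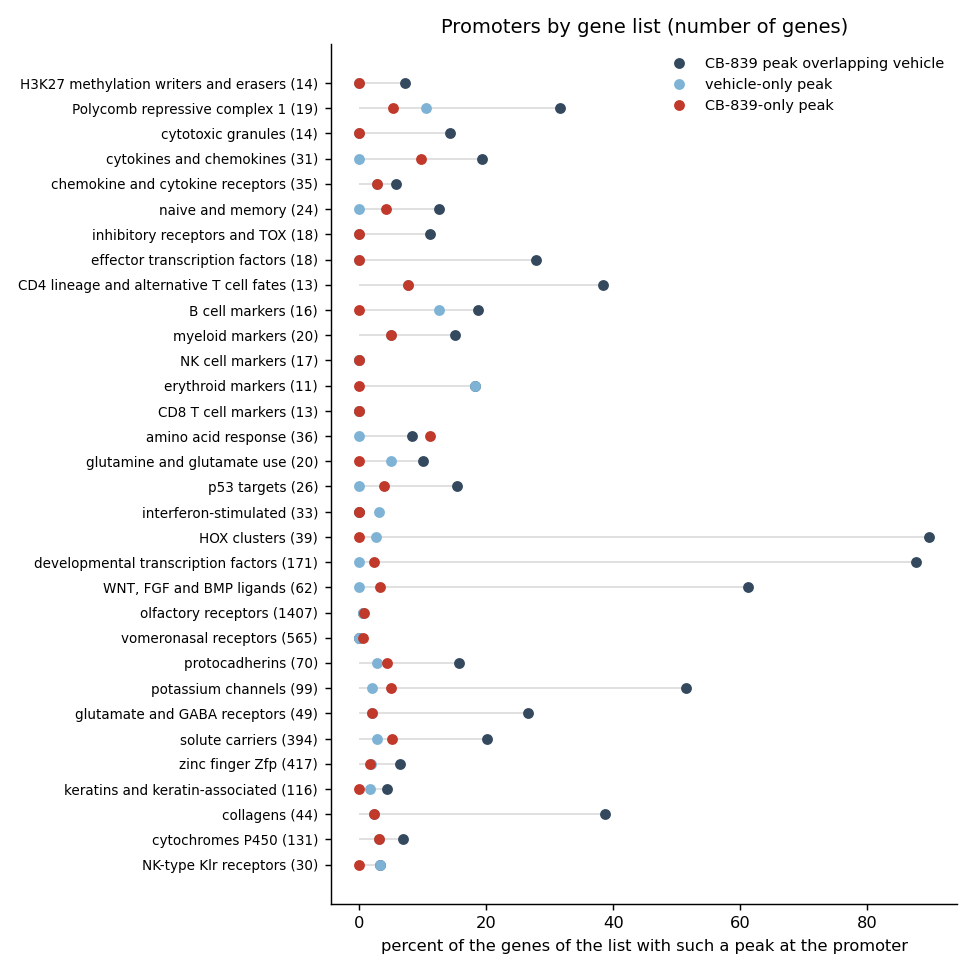
Percent of the genes of each list (x axis) with a CB-839-only peak (red), a CB-839 peak overlapping vehicle (dark blue) or a vehicle-only peak (light blue) at the promoter, with the number of genes in brackets. Points of equal value overlie each other. HOX and developmental genes are under shared peaks (35 of 39 and 150 of 171), and the amino acid response is at 4 of 36 in red.

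RNA of genes with a CB-839-only promoter peak was mostly low in vehicle cells. At 48 h 432 of the 533 protein-coding genes (81.1%) had a level under 1 CPM per kb of exon (CPM is the usual scaling of a count to the total of its library), compared with 89.6% of genes under shared peaks, 77.0% under vehicle-only peaks and 50.1% with no H3K27me3 peak. In CB-839 cells the share under 1 was 79.7% for the 533 genes. Of the marker lists, the 13 CD8 T cell markers took the largest share. They held 0.419 to 0.460% of counts with vehicle and 0.451 to 0.463% with CB-839, and all were detected. B cell markers took 0.0508 to 0.0561% with vehicle and 0.0507 to 0.0552% with CB-839, where all 16 were detected too. Erythroid markers took 0.0458 to 0.0988% with vehicle and 0.0646 to 0.0818% with CB-839. Myeloid markers took 0.000316 to 0.000415% and 0.000347 to 0.000408%. NK cell markers took 0.00696 to 0.00917% with vehicle and 0.0103 to 0.0112% with CB-839, and their part in the RNA results was not tested. In bulk RNA, fewer cells of a type and less RNA per cell cannot be told apart.

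RNA at these promoters moved in both directions with CB-839 at 48 h. Of the 966 genes 276 passed the low-count filter and were tested against vehicle (edgeR quasi-likelihood test, Benjamini-Hochberg adjusted p under 0.05 over all genes). RNA rose for 31 and fell for 23, or 19.6%. Of all 16173 tested genes 15.2% were called, 8.5% higher and 6.73% lower. The median log2 fold change was 0.04 for the 276 genes and -0.01 for all genes. Shares called were 17.2% for genes under shared peaks, 20.7% under vehicle-only peaks and 14.8% with no peak, so the share at CB-839-only peaks lay within the range of the other marked promoters. Without CB-839 replicate A the 23 lower genes became 15 and the calls over all genes went from 2464 to 1523. No test compared these shares.

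The same genes were read in the other comparisons, all of which share the vehicle libraries. Without glutamine 165 of the 276 were called, 80 higher and 85 lower (59.8%). Over all genes 54.3% were called, 28% higher and 26.3% lower. With DON 198 were called, 125 higher and 73 lower (71.7%). Over all genes 71.2% were called, 35.6% in each direction. At 24 h of CB-839 there were 8 higher and 11 lower of 275 (6.91%), against 4.95% of all genes, 2.47% higher and 2.48% lower. Same-letter libraries deviated together at 24 h (correlations 0.146 to 0.199), but the labels give only letters and the main fit did not pair them. With the replicate block 40 genes were called at 24 h instead of 19. DESeq2 called 34, and a fit of only the 8 libraries compared called 8. The 24 h count was 12 without CB-839 replicate D, 11 without vehicle replicate A and 9 without vehicle replicate B. From unstimulated cells to 48 h of vehicle 112 rose and 162 fell of 334 (82.0%), against 83.4% of all genes, 38.3% higher and 45.1% lower.

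**Figure D4:**
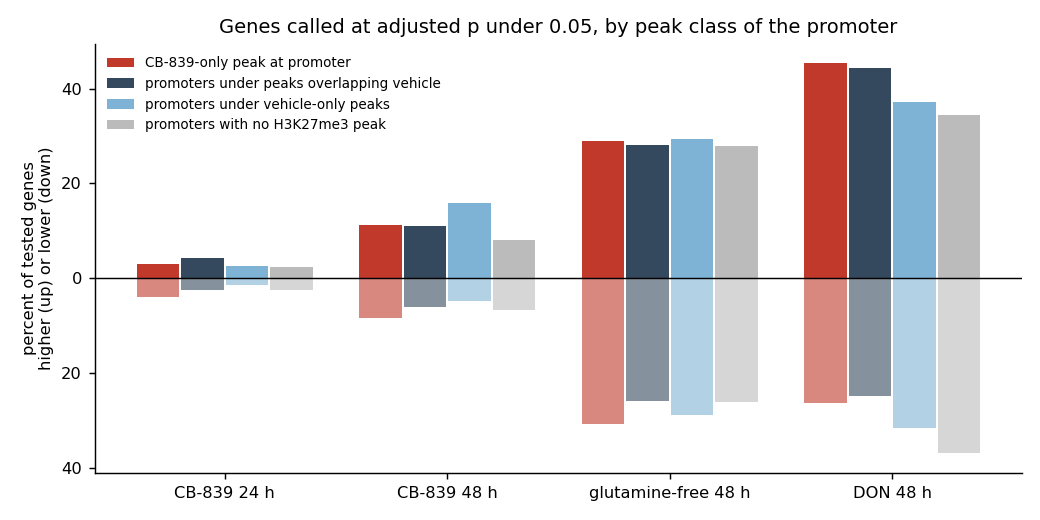
Percent of tested genes called higher (above 0) or lower (below 0, paler) in 4 comparisons with vehicle, by the H3K27me3 peak class of the promoter. At 48 h of CB-839 the genes with a CB-839-only peak (red) stand at 11.2% higher and 8.33% lower.

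Among the genes with a CB-839-only peak at the promoter, amino acid response genes had some of the largest rises in RNA. Values are CPM for replicates A to D. Asns, asparagine synthetase, was at 73.7, 75.8, 62.9 and 80.6 CPM with vehicle and at 173, 132, 154 and 132 with CB-839 at 48 h. The groups did not overlap, and the log2 fold change was 1.00 ± 0.09 (SE, n = 4 and 4; edgeR adjusted p = 1.25e-06). Its peak, chr6:7692703-7698426, covered the gene start with a signal of 10.9 and lay 283626 bases from the nearest vehicle peak. The 2 samples contributed 7.45 and 3.44 to that signal, and the region was also in the glutamine-free list.

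Slc6a9, the glycine transporter GlyT1, had the largest rise among the 966 genes at the level the naming rule required (a mean of at least 1 on the log2 CPM scale). Vehicle libraries were at 7.02, 5.18, 6.72 and 8.02 CPM and CB-839 libraries at 21.6, 13.6, 18 and 14.3, with no overlap. The log2 fold change was 1.31 ± 0.13 (SE, n = 4 and 4; edgeR adjusted p = 5.38e-06). Its peak (chr4:117826186-117836137) was 9952 bases wide with a signal of 13.9, and was in the DON and glutamine-free lists as well.

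Stc2, stanniocalcin 2, was low, with vehicle libraries at 1.52, 1.27, 1.61 and 2.48 CPM and CB-839 libraries at 4.02, 2.50, 2.70 and 2.23. The highest vehicle library exceeded the lowest CB-839 library. Its log2 fold change was 0.74 ± 0.21 (SE, n = 4 and 4; edgeR adjusted p = 0.027), and it lost the call without CB-839 replicate A (0.52), vehicle replicate A (0.68) or vehicle replicate B (0.62). Slc7a11, the cystine-glutamate exchanger, was at 0.716, 0.623, 0.452 and 0.366 CPM with vehicle and 0.942, 0.642, 0.740 and 0.825 with CB-839, overlapping. Its log2 difference of 0.50 ± 0.23 (SE, n = 4 and 4) was not called (edgeR adjusted p = 0.166). The peaks were chr11:31366767-31372963 at Stc2, with a signal of 14.96, and chr3:50443204-50444587 at Slc7a11, with 8.75, each over the gene start.

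At 24 h, when no CUT&RUN was done, RNA of these 4 genes was lower with CB-839 than with vehicle. Libraries overlapped for Slc6a9 (lowest vehicle 8.24 CPM, highest CB-839 9.1) and Slc7a11 (0.836 and 0.986), and not for Asns and Stc2. CB-839 lowered Asns by a log2 fold change of -0.77 (edgeR adjusted p = 0.00514), Slc6a9 by -0.77 (0.0241), Stc2 by -1.10 (0.0316) and Slc7a11 by -0.87 (0.0391), each with n = 4 and 4. The difference between the 2 times was called for each, from 1.39 for Slc7a11 to 2.10 for Slc6a9. Of 305 genes with a CB-839-only promoter peak tested for this difference 18 were called, and 604 of all 17257 (3.5%).

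Without glutamine at 48 h all 4 were far higher, at 415 ± 4.60 CPM for Asns, 70.5 ± 2.24 for Slc6a9, 16.6 ± 0.247 for Stc2 and 6.36 ± 0.386 for Slc7a11 (SD, n = 4). The log2 fold changes against vehicle were 2.40, 3.29, 3.19 and 3.43, all called. With DON they were lower than vehicle, at 30.2 ± 3.76, 4.99 ± 0.375, 1.18 ± 0.427 and 0.0561 ± 0.0419 CPM (SD, n = 4), and were called too. Over all tested genes 8.5% rose with CB-839 at 48 h and 6.73% fell. In the whole amino acid response list 24 of 34 tested genes rose and none fell (median log2 fold change 0.46). So 3 of the 24 risers had a CB-839-only peak at the promoter.

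**Figure D5:**
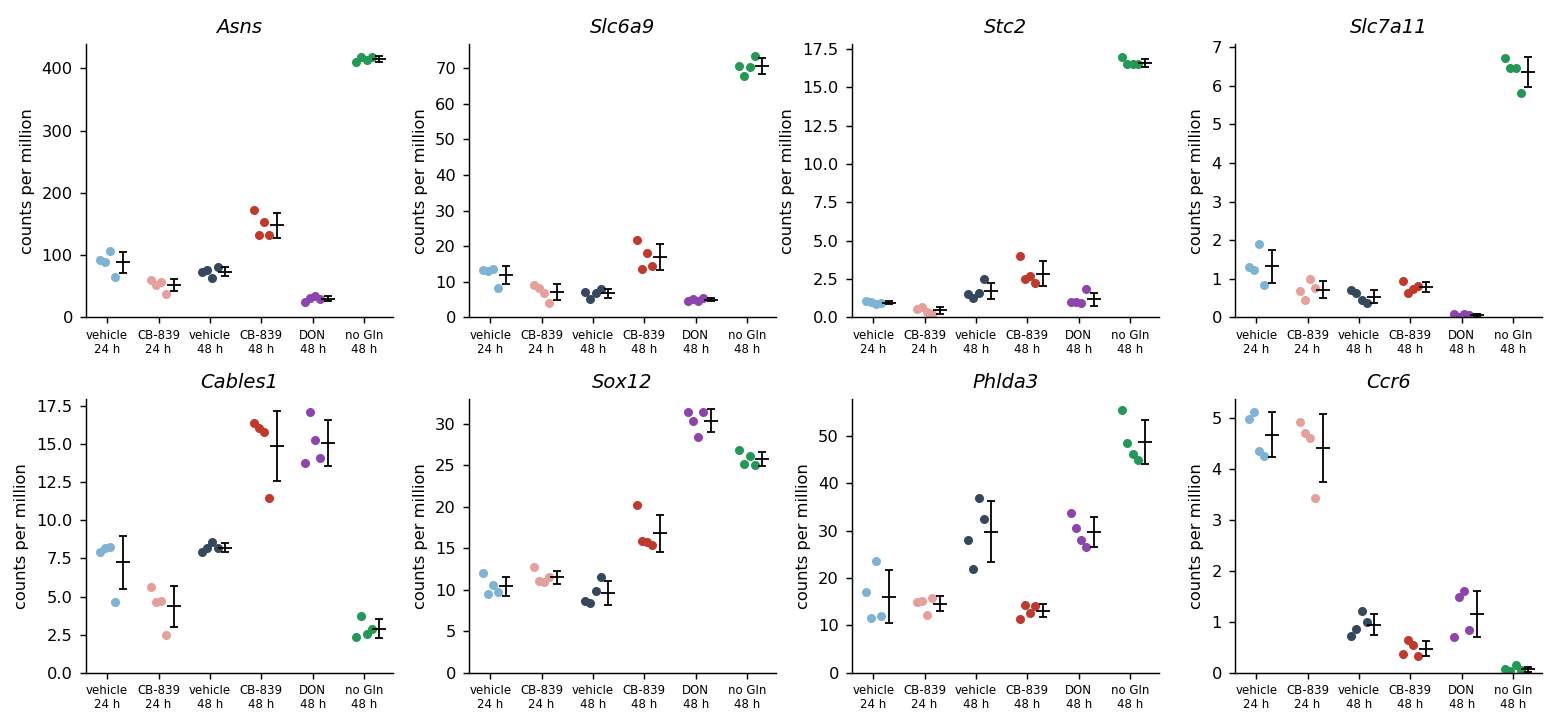
CPM (y axis) in each library (points) with mean and SD (bars, n = 4) for 8 genes with a CB-839-only peak at the promoter, for 2 groups at 24 h and 4 at 48 h. CB-839 libraries lie above vehicle at 48 h for Asns, Slc6a9, Cables1 and Sox12, and below it for Phlda3 and Ccr6. Stc2 and Slc7a11 overlap.

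The other named rises were in genes of varied function. Cables1, a linker of cyclin-dependent kinases and Abl, was at 7.92, 8.17, 8.61 and 8.19 CPM with vehicle and 16.4, 16.1, 15.8 and 11.5 with CB-839, a log2 fold change of 0.84 ± 0.12 (SE). Sox12, a Sox transcription factor, went from 8.66, 8.39, 9.80 and 11.5 to 20.2, 15.9, 15.8 and 15.4 CPM, a log2 fold change of 0.80 ± 0.10 (SE). Neither pair of groups overlapped. Ptprf, a receptor tyrosine phosphatase, rose from 2.19 ± 0.365 to 4.46 ± 0.631 CPM (SD, n = 4) and Castor2, a relative of the arginine sensor Castor1, from 4.04 ± 0.640 to 7.52 ± 0.807. Zbtb42, a zinc finger factor, rose from 1.66 ± 0.281 to 2.82 ± 0.230 CPM and Cnih2, a glutamate receptor auxiliary protein, from 1.36 ± 0.238 to 2.30 ± 0.249. Their edgeR adjusted p-values ran from 3.69e-05 for Sox12 to 0.00329 for Cnih2. The Sox12 and Castor2 peaks lay just upstream of the gene and did not include its start.

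The other conditions did not treat these genes alike. Cables1 fell without glutamine (log2 fold change -1.62) and rose with DON (0.69). Sox12 rose with both, by 1.33 and 1.48. Ptprf rose without glutamine (1.29), while its DON value of 0.24 was not called. Castor2 rose by 0.55 without glutamine and 1.21 with DON.

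Of the 23 genes that fell, 8 did so by at least 2-fold. Among those at the level the naming rule required, the largest fall was in Phlda3, a p53 target that restrains Akt signalling. It was at 28, 21.9, 36.8 and 32.4 CPM with vehicle and 11.4, 14.3, 12.6 and 14.1 with CB-839, with no overlap. The log2 fold change was -1.21 ± 0.14 (SE, n = 4 and 4; edgeR adjusted p = 2.34e-05). Its peak, chr1:135763540-135767185, covered the start with a signal of 7.67 and lay 7015 bases from a vehicle peak. It was in neither the DON nor the glutamine-free list. Phlda3 was 29.7 ± 3.10 CPM with DON, not called, and 48.8 ± 4.66 without glutamine (SD, n = 4), higher than vehicle by 0.61. Of 25 tested p53 targets 17 fell with CB-839 and 1 rose, where 6.73% of all tested genes fell and 8.5% rose. Phlda3 was the only gene of that list with a CB-839-only peak at the promoter, while 4 had a shared peak.

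Ccr6 was at 0.716, 0.863, 1.21 and 0.985 CPM with vehicle and 0.359, 0.642, 0.544 and 0.330 with CB-839, again without overlap. Its log2 fold change of -1.01 ± 0.31 (SE, n = 4 and 4; edgeR adjusted p = 0.0365) lost the call when CB-839 replicate A, C or D or vehicle replicate C or D was left out, with values from -0.84 to -1.09. The Ccr6 peak (chr17:8234626-8238076) had a signal of 10.4, lay 2012 bases from a vehicle peak and was also in the glutamine-free list. Ccr6 was 0.0688 ± 0.0509 CPM without glutamine (SD, n = 4), a log2 fold change of -3.86.

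Further falls were smaller in most cases. Cox6b2, a testis-enriched cytochrome oxidase subunit, fell from 5.22 ± 1.57 to 2.66 ± 0.354 CPM (SD, n = 4) and Irf5, an interferon regulatory factor, from 9.37 ± 1.33 to 6.85 ± 0.356. Socs2, a suppressor of cytokine signalling, went from 124 ± 17.2 to 91.8 ± 8.09 CPM, and Ell2, an elongation factor, from 29.2 ± 7.11 to 21.7 ± 1.39, with overlapping libraries for both. Log2 fold changes ranged from -0.98 for Cox6b2 to -0.45 for Socs2 and Ell2. The pseudogenes Bloc1s2-ps (-0.34) and Apoo-ps (-0.33) were also called, and reads shared with their parent genes make both uncertain. Ell2 and Apoo-ps each lost the call without CB-839 replicate A or B or vehicle replicate A or B, and Apoo-ps also without CB-839 replicate C, with the replicate block (-0.33) and with library totals (-0.31). Without vehicle replicate B, Ell2 was at -0.30 and Apoo-ps at -0.18.

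Lineage genes with a CB-839-only promoter peak were mostly near zero in the vehicle and CB-839 libraries at 48 h. Cd4 was at most 0.179 CPM with vehicle and 0.157 with CB-839, and Il17f at most 0.113 and 0.0713. Il5 and Ccl22 were at most 0.113 and 0.0671 CPM with vehicle. Of these only Il17f passed the filter, at a log2 difference of -0.40 ± 0.57 (SE; edgeR adjusted p = 0.729). Wnt9b, Irx1 and Gdf10 had no count in any of the 8 libraries, which over all of them allows up to 0.00919 CPM (3 counts, counting error only). Mpo, a myeloid enzyme, was 0.186 ± 0.0990 CPM with vehicle and 0.0853 ± 0.0892 with CB-839 (SD, n = 4), not called. With DON both Il17f and Mpo were higher than with vehicle, at 1.69 ± 0.198 CPM for Il17f (log2 fold change 4.35, edgeR adjusted p = 1.1e-09) and 1.36 ± 1.27 for Mpo (2.66, edgeR adjusted p = 0.000813; SD, n = 4). Klf2 had fallen from 1580 ± 51.5 CPM in unstimulated cells to 4.67 ± 0.605 with vehicle at 48 h (SD, n = 4), and was 4.85 ± 0.762 with CB-839 (edgeR adjusted p = 0.879). Klf2 was 69.1 ± 7.74 CPM with DON and 3.11 ± 0.425 without glutamine (log2 fold change -0.68, edgeR adjusted p = 0.000332). The short DON list did not hold the Klf2 region, as it lacked most members, and a link to the RNA was not tested.

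Bmi1, a Polycomb repressive complex 1 subunit, had a member over its 5′ part and abundant RNA, 76.6 ± 17.2 CPM with vehicle and 81.3 ± 5.53 with CB-839 (SD, n = 4; edgeR adjusted p = 0.738). RNA is given first for 5 genes whose member lay at the promoter and also touched vehicle H3K27ac. Spata31d1b also had such a member (signal 16.3), but its RNA is not given. Nin, a centrosomal protein, was 79.0 ± 12.7 CPM with vehicle and 94.2 ± 4.07 with CB-839 (SD, n = 4), a called rise of 0.24 on the log2 scale (edgeR adjusted p = 0.032). That call was lost without any 1 of the 4 CB-839 replicates or without vehicle replicate D, with values from 0.21 to 0.25. Cerk, ceramide kinase, went from 17.3 ± 2.05 to 22.6 ± 1.63 CPM, a rise of 0.37 (edgeR adjusted p = 0.0022). Asb1, Csrnp2 and Aste1 were not called, at log2 differences of -0.16, 0.30 and -0.05. Fhl2, Socs6 and Zeb2, with such a member in the gene body by the outermost start, were not called either, at -0.06, 3e-04 and 0.02. The Fhl2 member also covered a RefSeq start inside the longer annotated gene, with the CpG-rich bases just before it. Erbin, near such a member, had a log2 difference of 0.15.

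RNA of the H3K27me3 enzymes themselves is given as background. Of 14 tested writer and eraser genes 2 rose with CB-839 at 48 h and none fell, where 8.5% of all tested genes rose and 6.73% fell. Kdm6b was 18.2 ± 1.75 CPM with vehicle and 24.2 ± 1.25 with CB-839 (SD, n = 4), a log2 rise of 0.39 (edgeR adjusted p = 0.000613), and Ezh1 was 20.9 ± 1.60 and 25.3 ± 1.11 (0.25, edgeR adjusted p = 0.00292). Ezh2 was 559 ± 84.7 CPM with vehicle and 503 ± 22.1 with CB-839 (edgeR adjusted p = 0.14), and Eed and Suz12 were not called either.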

How the data were processed

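Members and gene lists were chosen with earlier results of these data known. The authors aligned reads to mm10 and the submitters' processing notes name FastQC, Bowtie2, STAR, MACS2, featureCounts and deepTools, with no role for each. The deposited peak lists combine the 2 samples of a condition by IDR and hold no header. Their signal value per peak, taken by the authors, equals the sum of the values of the 2 samples, which are not identified as replicate A or B. The deposited score (at most 1000) and the deposited −log10 IDR rank peaks within a list. The deposited RNA table holds raw exon counts for GENCODE vM25 genes. The authors ran featureCounts 2.0.1 without a strand option, per the file headers. A gene and an overlapping or antisense gene therefore cannot be told apart.

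Peaks were compared by overlap of at least 1 base in Python. RNA was tested with edgeR 4.0.16 (filterByExpr, TMM scaling, robust quasi-likelihood fit, 16 libraries per fit, adjusted p under 0.05), in separate fits for 48 h, 24 h and activation. CPM values use library totals without TMM. DESeq2 1.42.0 was an alternative. On simulated counts for the 48 h design the fit was checked before use. Named genes were the 8 largest rises and 8 largest falls among called genes with a CB-839-only promoter peak, with mean log2 CPM 1 or higher and no predicted-gene symbol, every gene of a list with such a peak, the 10 members of highest signal and the 5 genes with most members. An item that this rule names is not reported here. Replicates were compared: libraries of a group differed beyond sampling noise (chi-square per degree of freedom at least 2.95). Same-letter libraries deviated together at 24 h of CB-839 and vehicle (correlations 0.146 to 0.199). Between unstimulated cells and vehicle at 48 h the correlations were also all positive, at 0.067 to 0.155. In the 48 h comparisons with vehicle they were of mixed sign for CB-839 and glutamine-free medium, and negative for DON. Alternatives changed the IDR, overlap, promoter window, scaling, filter, tool and libraries. H3K27me3 signal of vehicle cells outside listed peaks and the IgG samples were not analysed here.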

Additional observations from a re-analysis of the deposited data

Results flagged for a closer look

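In groups of 4 libraries chance flags about 1 in 20, and 10 of 86 groups examined had a library apart from the other 3 (by the ratio of its gap to the group's range). With CB-839 at 48 h these were Ptprf in replicate A (5.41 CPM), Cables1 in replicate D (11.5 CPM), Sox12 in replicate A (20.2 CPM) and Klf2 in replicate A (5.99 CPM). In the same group Ccl22 in replicate D (0.055 CPM), Il5 in replicate C (0.0871 CPM), Mpo in replicate C (0.218 CPM) and Otx2 in replicate B (0.0475 CPM) also stood apart, all at levels of a few counts. With vehicle at 48 h Sox5 (0.141 CPM) and Ezh1 (18.5 CPM) were low in replicate C. Ptprf, Cables1 and Sox12 kept their calls without these libraries.

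The effect of CB-839 differed between 48 h and 24 h, by the interaction term of an edgeR fit over both times, for 13 genes named in the text. The log2 difference, 48 h minus 24 h, was 2.10 for Slc6a9 (adjusted p = 4.8e-06), 1.79 for Asns (1.07e-06), 1.85 for Stc2 (0.00378), 1.39 for Slc7a11 (0.0182) and 1.61 for Cables1 (0.000743). It was 0.69 for Sox12, 0.92 for Cnih2, 0.46 for Zfp652 and 0.56 for Kdm6b, which has no CB-839-only peak at its promoter. It was negative for Phlda3 (-1.05), Cox6b2 (-1.08), Irf5 (-0.83) and Bloc1s2-ps (-0.60). Asns, Slc6a9, Stc2 and Slc7a11 were called lower at 24 h, and all but Slc7a11 were called higher at 48 h.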

How the results depend on the processing

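The number of CB-839-only peaks depended on the IDR limit: 1438 with an IDR of at most 0.01 in the CB-839 list, 2836 with that limit in both lists and 7072 with it in the vehicle list alone, against 4491. At promoters there were 326 with the limit in the CB-839 list and 1703 with it in the vehicle list, against 833. Of 54 genes with such a promoter peak called at 48 h, 21 were left for peaks of IDR at most 0.01, 82 were called with a 2500-base window and 32 with only the 8 libraries compared. Leaving out 1 library gave 38 to 72 of these genes and 1523 to 3694 of all genes, and only the 8 libraries gave 1054 of all genes. At 24 h all-gene calls were 1295 with DESeq2, 441 with only 8 libraries and 398 to 789 without 1 library, against 806. The replicate block gave 1840 calls at 24 h, 2182 at 48 h and 49 genes with a CB-839-only promoter peak at 48 h, and no other count of calls moved over 1.5 times with it, apart from the 24 h count of genes with such a peak. Single genes were recomputed for CB-839 against vehicle at 48 h only, for 25 called genes, of which Nin, Cerk, Kdm6b and Ezh1 were added after seeing the data. Of these 350 values none reversed and 35 lost the call, in Ell2, Apoo-ps, Ccr6, Stc2, Slc26a10 and Nin, each of which lost it with only the 8 libraries compared. Stc2 and Slc26a10 also lost it with no low-count filter. Single-gene values at 24 h, with DON and without glutamine were not recomputed. The share of rises among called genes with such a peak was 57.4%, 52.7% with DESeq2-type size factors and 63.6% with library totals. Over all genes these shares were 55.8%, 50.6% and 62.7%.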

Other observations

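Within genes, members without a promoter peak lay in 1489 of 55487 genes, 1096 of them protein-coding (5.23% of 20952). Among B cell markers 6 of 16 (37.5%) had one in the body, Pax5, Ebf1, Blk, Blnk, Vpreb3 and Faim2, of which Pax5 and Ebf1 encode the factors that set B cell identity. Among protocadherins, which mediate neuronal cell contact, 14 of 70 (20%) had one, 13 of them in the gamma cluster, whose annotated genes overlap each other. Wnt and Fgf ligands such as Wnt4, Wnt3a, Wnt7b, Fgf10 and Fgf18 had one, as did the granzymes Gzma and Gzmc and the receptors Il1r1, Il18r1 and Cx3cr1. Among inhibitory receptors and TOX factors, Tox2, Nt5e and Entpd1 had one. For Vpreb3 and Fgf10 a CB-839-only peak covered the 250 bases before a RefSeq start, which lies inside the longer annotated gene. The shares of genes with a member in the body were not adjusted for gene length. Such shares are not given for shared or vehicle-only peaks.

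The 5 genes with most members in promoter or body were annotated over long spans: Gm20388 with 28 over 4434882 bases, Fgfr2 with 10, Arhgap26 with 9, Dnah14 with 8 and Dock3 with 7. Olfactory receptors had 11 promoters of 1407 under CB-839-only peaks, 8 under shared peaks and 8 under vehicle-only peaks. Solute carriers had 20 of 394 under CB-839-only peaks and 79 under shared peaks. Among these 20, Slc26a10 rose with CB-839 from 6.69 ± 0.542 to 8.20 ± 0.272 CPM (SD, n = 4; log2 fold change 0.28, edgeR adjusted p = 0.0211), a call lost without CB-839 replicate C (0.26), vehicle replicate A (0.26) or vehicle replicate B (0.24). Gabbr1, a GABA-B receptor subunit, rose from 10.9 ± 0.319 to 15.8 ± 1.15 CPM (0.52, edgeR adjusted p = 0.00221), and Zfp652, a zinc finger factor, from 15.3 ± 1.89 to 19.3 ± 0.651 (0.32, edgeR adjusted p = 0.00457), each with n = 4 and 4.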
